A study of Mus musculus with 16 samples.

Results

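A total of 3136 mouse promoters carried a peak of the histone demethylase LSD1 in CD8+ T cells treated with the LSD1 inhibitor GSK2879552 (GSK) and none in vehicle-treated (Veh) cells. A promoter was the window of 1 kb on either side of a transcription start site (TSS), taken once for each distinct start of a curated RefSeq transcript on mm10 (GRCm38). A promoter was a member when at least 1 bp of it met a GSK LSD1 peak and no base of it met a Veh LSD1 peak. Members made up 9.92% of 31603 promoters (Wilson 95% interval 9.60 to 10.3%) and belonged to 2691 of 26143 genes. They were 24.4% of the promoters with LSD1 under GSK. LSD1 was called in both treatments at 9714 promoters, in Veh only at 1425 and in neither at 17328.

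The cells were splenic CD8+ T cells of OT1 mice, which carry a transgenic T-cell receptor for a peptide of ovalbumin, so the cells shared an engineered antigen specificity, and they were grown outside the animal. They were stimulated with anti-CD3 and anti-CD28 antibodies for 48 h and then grown in IL-2 for 3 days, with 0.5 μM GSK or with Veh. Both groups thus shared the mouse strain, the stimulation and the cytokine, and differed in the inhibitor, which binds LSD1 irreversibly. ChIP-seq was done for LSD1, for RNA polymerase II (Pol II) and for the histone marks H3K4me3, H3K27ac, H3K4me1 and H3K4me2, and each of the 12 libraries had 1 peak list. The 4 input samples carried no peak list and were not analysed here. Since each antibody and treatment had 1 library, a spread between replicates could not be measured and no difference was tested. Every interval given here is a 95% interval for counting error only (Wilson for a share, Newcombe for a difference of shares), and neighbouring TSSs that share a peak make them too narrow. H3K4me3 was called at 10 of 10 T-cell marker genes in both treatments, among them Cd3e and Cd8a, at 2 of 8 B-cell markers (Cd79b and Ebf1), 1 of 8 myeloid markers (Cd14), 2 of 6 NK-cell markers (Klrc1 and Klrd1), 3 of 6 erythroid markers (among them Klf1 and Epor) and 1 of 2 CD4 T-cell markers (Zbtb7b). The same marker genes had H3K4me3 in Veh and in GSK, and the part of other cells in the results was not tested.

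LSD1 (gene Kdm1a) takes methyl groups off mono- and dimethylated lysine 4 of histone H3 and sits on chromatin as a subunit of complexes with the corepressor CoREST and histone deacetylases. H3K4me3 marks the promoters of active and poised genes, H3K4me1 and H3K4me2 lie at enhancers and around promoters, H3K27ac goes with activity, and Pol II is the enzyme that transcribes the genes. Irreversible inhibitors of this class attach to the flavin cofactor in the catalytic centre, and the protein can remain on chromatin while it is inhibited.

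The sequence under the LSD1 peak was read from GRCm38 for members of the gene groups described further on. Each run is 101 bp centred on the summit of the GSK LSD1 peak, on the strand of the gene, and capitals mark matches to 1 of 11 short motifs on either strand. The runs shown lie outside exons of the RefSeq annotation. The first set is from genes of translation, among the groups with the largest member shares. Eif4a1, which encodes an RNA helicase of translation initiation, has its summit in an intron at chr11:69671356-69671456 (minus strand), with an SP motif (GGGCGG, here as its reverse complement). Rps3a1 and Rps15a encode proteins of the small ribosomal subunit. The Rps3a1 window lies upstream of the gene at chr3:86142688-86142788 (minus strand), the Rps15a window lies in an intron at chr7:118115859-118115959 (minus strand), and neither held any of the motifs.
Eif4a1: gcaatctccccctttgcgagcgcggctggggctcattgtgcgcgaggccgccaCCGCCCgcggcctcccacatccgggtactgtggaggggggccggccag
Rps3a1: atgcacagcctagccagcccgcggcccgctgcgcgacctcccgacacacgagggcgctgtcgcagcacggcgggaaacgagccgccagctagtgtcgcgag
Rps15a: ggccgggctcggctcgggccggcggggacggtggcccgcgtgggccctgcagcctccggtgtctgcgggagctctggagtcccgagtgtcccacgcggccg

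The second set is from chromatin regulators. Rcor1 encodes CoREST, the partner of LSD1, and Arid1a encodes a subunit of the SWI/SNF remodelling complex. Both windows lie upstream of the TSS and outside any gene, at chr12:111038882-111038982 (plus strand) and chr4:133756858-133756958 (minus strand), and Arid1a carries an SP motif.
Rcor1: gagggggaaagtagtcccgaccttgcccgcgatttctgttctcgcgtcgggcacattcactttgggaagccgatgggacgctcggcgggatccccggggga
Arid1a: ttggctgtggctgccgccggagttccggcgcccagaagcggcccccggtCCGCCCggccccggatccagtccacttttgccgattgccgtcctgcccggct

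The third set is from genes with roles in T cells. Irf4 encodes a transcription factor induced by T-cell receptor signals, and its window in an intron at chr13:30749441-30749541 (plus strand) holds an SP and a RUNX (TGTGGT) motif. Nr4a1 encodes an orphan nuclear receptor induced by the same signals, and its window at chr15:101266644-101266744 (plus strand), upstream of the TSS used here but inside the annotated gene, holds more than 1 SP match. Myb encodes a transcription factor of progenitor cells, with a window upstream of the gene at chr10:21161033-21161133 (minus strand). Cd160 encodes a surface receptor of cytotoxic lymphocytes, and its window in an intron at chr3:96814351-96814451 (minus strand) shows a member run without any CG letter pair.
Irf4: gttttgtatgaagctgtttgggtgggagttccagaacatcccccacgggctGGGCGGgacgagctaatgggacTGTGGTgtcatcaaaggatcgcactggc
Nr4a1: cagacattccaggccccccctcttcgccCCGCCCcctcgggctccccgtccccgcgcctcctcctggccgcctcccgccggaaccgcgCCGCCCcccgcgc
Myb: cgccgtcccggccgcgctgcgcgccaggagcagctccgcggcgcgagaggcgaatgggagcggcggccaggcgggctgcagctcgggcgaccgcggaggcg
Cd160: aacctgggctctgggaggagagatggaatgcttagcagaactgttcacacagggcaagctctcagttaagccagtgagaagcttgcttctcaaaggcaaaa

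Members were chosen by their LSD1 peak calls in these same lists, so the strength of those peaks is given as a description only. The 3136 members were met by 2459 distinct GSK LSD1 peaks. The peak caller's −log10 p, which is larger for a peak further above its local background, had a median of 6.48 at members, with quartiles of 5.13 and 8.28 and a range from 3.01 to 24.7. The fold enrichment over the local background had a median of 4.24, with quartiles of 3.66 and 4.88. At promoters with LSD1 in both treatments the GSK peak had a median −log10 p of 9.58 and fold of 5.24, and at Veh-only promoters the Veh peak had medians of 5.78 and 3.93. Member peaks were thus weaker than shared peaks and near those called in Veh only. A −log10 p of 10 or more was reached at 384 members (12.2%), against 46.5% of promoters with LSD1 in both.

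The share of promoters called in only 1 list fell along the scale of strength in either direction. Of promoters whose GSK LSD1 peak had a −log10 p from 3 to 4, 69.4% had no Veh peak (202 of 291). That share was 44.4% from 5 to 6, 20.3% from 8 to 10 and 2.20% at 15 or more, where 39 of 1775 promoters were members. For Veh peaks without a GSK peak it went from 42.0% at 3 to 4 to 2.00% at 15 or more. Members therefore sat mostly at the weak end of the GSK list, and Veh-only promoters at the weak end of the Veh list. The Veh list was the longer of the pair, with 21252 peaks against 19919 under GSK. At promoters with LSD1 in both, however, the Veh peak was the weaker. Its median −log10 p was 7.77 and its fold 4.54, against 9.58 and 5.24 for the GSK peak.

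**Figure D1:**
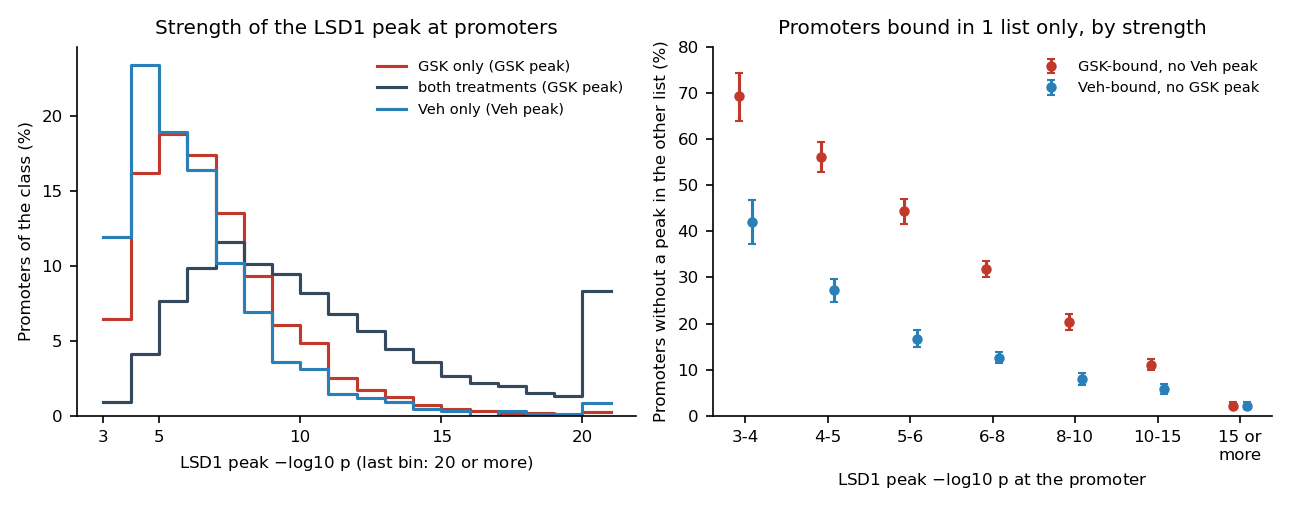
Left, the share of promoters of each LSD1 class (y axis, %) by the −log10 p of their LSD1 peak (x axis, last bin 20 or more); right, the share of promoters with a peak in 1 list that lacked one in the other (y axis, %) by −log10 p, with 95% Wilson intervals as bars. Member peaks had a median of 6.48 against 9.58 where LSD1 was called in both treatments, and the share of GSK-bound promoters lacking a Veh peak went from 69.4% in the weakest bin to 2.20% in the strongest.

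The LSD1 summit at members lay at a median of 102 bp downstream of the TSS, and 52.4% of members had it within 250 bp on either side. The nearest Veh LSD1 peak was a median of 19596 bp from the TSS, with quartiles of 8756 and 43315 bp. It lay within 2.5 kb at 247 members (7.88%). Some genes named further on were among them, at 1166 bp for Rps3a1, 1160 and 1752 bp for Kdm2b, and 1425 bp for Kat2a. The distance was 1521 bp for Spi1, 1561 bp for Il27ra, 1596 bp for Myb, 2045 bp for Arid1a and 2465 bp for S1pr1. Most members therefore had no Veh LSD1 peak nearby, but a few were cut off by the window's edge. At 70 members (2.23%, 1.77 to 2.81%) the GSK peak itself met a Veh LSD1 peak outside the window, so LSD1 was called at the same site in both treatments. Those 70 included 9 of the 39 members with a −log10 p of 15 or more and 29 of the 384 with 10 or more, and 3066 members remained without them.

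The members with the strongest GSK LSD1 peaks were led by such edge cases. Ncoa2, a nuclear receptor coactivator, reached a −log10 p of 24.7 (fold 6.78), with the summit at −2078 bp from the TSS and a Veh LSD1 peak 1027 bp from the TSS. Cldn7, a tight junction protein, had 24.1 and 8.77, and its nearest Veh peak was 1278 bp away. Mir1967, a microRNA gene, had 22.5 and 7.37 with a Veh peak at 1112 bp, and 2210416O15Rik had 21.4 and 7.78 with a Veh peak at 1074 bp. In each of these 4 the GSK peak met that Veh peak, so they differed between treatments in where the peak ended and not in whether LSD1 was called at the site.

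The other strong members had no Veh LSD1 peak at the site. Eif4a1, the RNA helicase of the cap-binding complex, reached a −log10 p of 21.1 (fold 8.34), with the nearest Veh peak 9549 bp away. Adck2, a mitochondrial atypical kinase, had 20.7 and 8.99 with the nearest Veh peak at 18456 bp. Cep43, a protein of the centrosome, had 20.3 and 9.33 with a distance of 4702 bp, and its promoter carried H3K4me3 alone of the 5 other antibodies, with a fold of 6.02 in Veh and 6.26 in GSK. Mrpl52, a protein of the mitochondrial ribosome, had 18.8 and 7.98, with the summit 8 bp from the TSS. Tbc1d10c, a negative regulator of Ras and calcineurin in lymphocytes, and Ppp1ca, a catalytic subunit of protein phosphatase 1, shared 1 peak with values of 18.5 and 6.31.

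At the edges of the rule, the members with the weakest GSK peak were Snx22 and Topaz1, each with a −log10 p of 3.01, and the least overlap between peak and window was 1 bp at Mir1967, 2 bp at Ntn5 and 3 bp at Snord87. Sp3, Kif13a and Cacna1g were members although a Veh LSD1 peak began 1002, 1002 and 1003 bp from the TSS. Just outside, Gjb1, Prkar1a and Kcnh8 had a GSK LSD1 peak 1001, 1003 and 1005 bp from the TSS. Ppdpf, 1700034P13Rik and Uros were left out by a Veh peak that covered 3, 4 and 5 bp of the window, and Ppp6r1, Ap3d1 and H2-Q6 by a Veh peak with a −log10 p of 3.01. An overlap of less than 200 bp between peak and window was seen at 120 members (3.83%).

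The 10 lists of the other 5 antibodies were not used to choose members and showed what chromatin lay there in each treatment. Most members were H3K4me3 promoters before and after treatment, whereas H3K27ac and Pol II were called at a minority. H3K4me3 was called at 85.5% of members in Veh and at 88.5% under GSK. It appeared at 109 members (3.48%) that lacked it in Veh and was lost at 16 (0.510%), and over all promoters these shares were 1.52% and 0.351%. Of the members with H3K4me3 in Veh, 99.4% kept it. Over all promoters H3K4me3 was called at 49.4% in Veh and 50.6% under GSK. The net change at members, which is the GSK-only share minus the Veh-only share, was 2.97 points (2.41 to 3.35), and 1.08 points with lists cut to equal length by strength.

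H3K4me1, a substrate of LSD1, was called at 48.8% of members in Veh (1529) and 58.0% under GSK (1818). It was called in GSK only at 441 members (14.1%) and in Veh only at 152 (4.85%), against 9.78% and 3.50% of all promoters. The net change was 9.22 points (7.83 to 10.5). The whole H3K4me1 list was also longer under GSK (40272 peaks against 34387), and with lists of equal length the net change was 3.54 points.

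H3K4me2, the other substrate, was called at 66.7% of members in Veh and 46.4% under GSK. It was called in GSK only at 102 members (3.25%) and in Veh only at 738 (23.5%), against 1.92% and 12.8% of all promoters, a net change of −20.3 points (−21.4 to −19.0). The lists also differed in length, with 15219 peaks in Veh and 9437 under GSK, and with lists of equal length the net change was 0.829 points, with an interval from −0.795 to 2.44 that included 0. With peaks above a −log10 q of 5 kept in both lists, it was −16.6 points (−17.7 to −15.3). Lists of equal length leave out weaker Veh peaks only, which draws the net change towards 0. The equal-length value therefore cannot show whether the H3K4me2 share fell.

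H3K27ac was called at 34.8% of members in Veh and 13.7% under GSK. It was called in Veh only at 678 members (21.6%) and in GSK only at 16 (0.510%), against 12.1% and 0.335% of all promoters. The net change was −21.1 points (−21.5 to −20.5), and −1.21 points with lists of equal length, the lists having 7410 peaks in Veh and 2751 under GSK. The study states far fewer reads for the GSK than for the Veh H3K27ac library, and the part of depth in this difference was not tested. Pol II was called at 46.9% of members in Veh and 39.4% under GSK, in GSK only at 141 (4.50%) and in Veh only at 378 (12.1%), against 2.84% and 7.08% of all promoters. Its net change was −7.56 points (−8.77 to −6.24), and its lists were of like length, with 15638 peaks in Veh and 15401 under GSK.

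**Figure D2:**
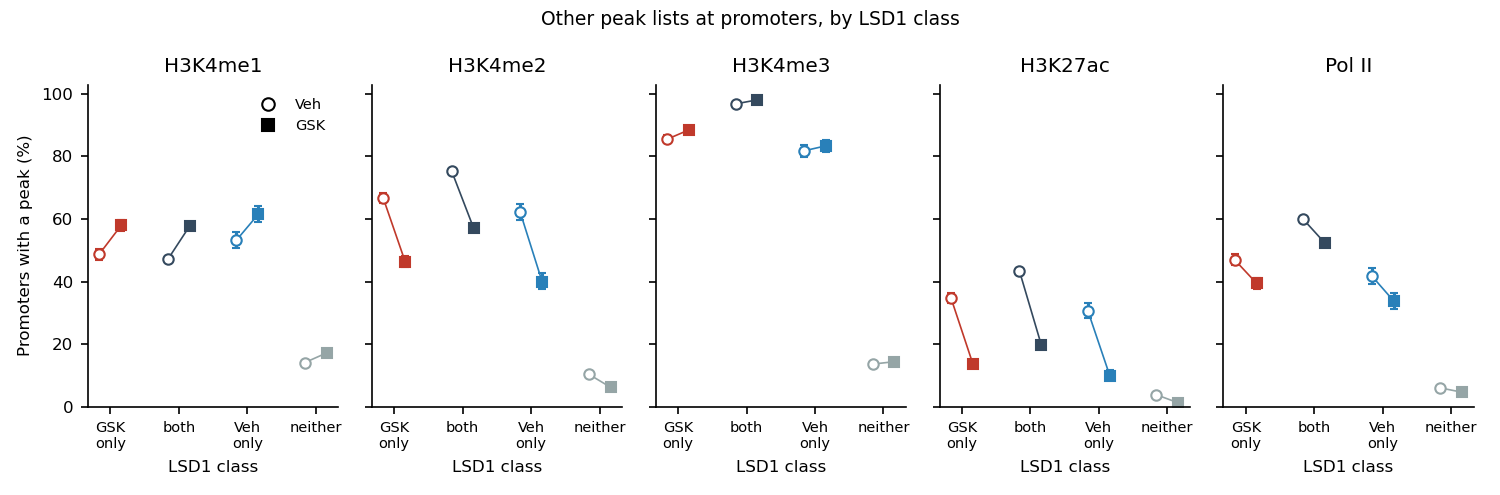
Share of promoters with a peak (y axis, %) in Veh and in GSK for each of the 5 other antibodies, by LSD1 class (x axis), with 95% Wilson intervals as bars. Members (GSK only) lie between promoters with LSD1 in both treatments and those with LSD1 in Veh only for H3K4me2, H3K4me3, H3K27ac and Pol II, and the Veh-to-GSK shift of each antibody has the same direction in all 4 classes, although at members the H3K4me2 shift was 0.829 points with lists of equal length.

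The shift of each mark from Veh to GSK at members was set against that at promoters with the opposite LSD1 call. The net change at members minus that at Veh-only promoters was 0.865 points for H3K4me1 (−1.54 to 3.39), 1.89 for H3K4me2 (−0.192 to 3.75), −0.408 for H3K27ac (−1.30 to 0.274) and 0.443 for Pol II (−1.85 to 2.58). All 4 of these intervals included 0, but not under every alternative. The H3K4me1 difference was 2.91 points (0.183 to 5.62) with lists of equal length and 2.71 (0.0763 to 5.46) with LSD1 peaks at a −log10 q of at least 2, and the H3K4me2 difference was 2.54 (0.111 to 4.66) at that q and 0.0572 (−2.81 to 2.94) with lists of equal length. For H3K4me3 the difference was 1.42 points (0.408 to 2.53), and 0.944 points (−0.201 to 2.07) with H3K4me3 lists of equal length. These intervals combine net-change intervals that are too narrow, so a bound close to 0 does not separate the classes. They also do not show that the classes acted alike, since differences as large as their bounds or larger remain possible.

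Members differed more in which marks they carried than in how these shifted. In Veh cells H3K4me3 was 11.3 points less frequent at members than at promoters with LSD1 in both treatments, Pol II 13.0 points, H3K27ac 8.62 points and H3K4me2 8.62 points. Against Veh-only promoters, members had more H3K4me3 by 3.70 points, Pol II by 5.18, H3K27ac by 4.19 and H3K4me2 by 4.50, and less H3K4me1, with a difference of −4.44 points (−7.55 to −1.31). These Veh levels were measured in cells in which no LSD1 peak was called at the members.

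A gap to promoters with LSD1 in both treatments remained among peaks of like strength for H3K4me3, Pol II and H3K4me2, and for H3K4me3 it was narrower in each band above a −log10 p of 5. Where the GSK LSD1 peak had a −log10 p from 3 to 5, H3K4me3 was called in Veh at 71.4% of members and 92.6% of promoters with LSD1 in both, a difference of −21.2 points (−25.2 to −17.0). At 10 or more it was 91.7% against 97.1%, a difference of −5.39 points (−8.61 to −2.96). For Pol II in Veh the shares were 36.4% against 51.6% from 3 to 5 and 52.3% against 58.9% at 10 or more, with the widest gap, −16.7 points, from 5 to 7. The H3K4me2 gap in Veh was −12.3 points from 3 to 5, −5.57 from 5 to 7, −6.15 from 7 to 10 and −8.45 at 10 or more, so it did not narrow steadily. For H3K27ac in Veh the interval at 10 or more included 0 (−8.57 to 1.52). H3K4me1 differed from 3 to 5, by −6.78 points, and its intervals included 0 in each stronger band. Within the members, H3K4me3 in Veh went from 72.1% of the 784 with the weakest GSK LSD1 peaks to 92.3% of the 784 with the strongest, and Pol II from 36.9% to 53.6%.

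Promoters that lacked a mark in Veh show where new calls arose. Of the 454 members without H3K4me3 in Veh, 24.0% had it under GSK, against 15.4% at Veh-only promoters (difference 8.56 points, 2.42 to 14.2), 41.8% at promoters with LSD1 in both and 1.36% where LSD1 was in neither. For H3K4me1 the share was 27.4% of 1607 members, against 31.8% with LSD1 in both and 30.0% in Veh only. For H3K4me2 it was 9.76% of 1045 members, for Pol II 8.47% of 1664 and for H3K27ac 0.782% of 2045. New H3K4me3 calls were thus more frequent at unmarked members than at unmarked Veh-only promoters, whereas the difference for H3K4me1 was −2.54 points with an interval from −6.71 to 1.49.

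In combination, H3K4me3, Pol II and H3K27ac were called together at 29.4% of members in Veh and 11.5% under GSK. H3K4me3 with neither Pol II nor H3K27ac was found at 33.5% in Veh and 47.1% under GSK. H3K4me1 or H3K4me2 without H3K4me3, the pattern of enhancers, was found at 8.77% and 6.66%. None of the 5 antibodies was called at 5.61% of members in Veh and 4.75% under GSK, compared with 0.474% and 0.350% of promoters with LSD1 in both. A member was therefore most often an H3K4me3 promoter with or without a call of activity, and rarely bare.

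Where a mark was called at a member in both treatments, the fold of its peaks could be set side by side. Histone peaks were called as broad peaks, so their fold is not a peak height. They were narrower under GSK for H3K27ac (median log2 width ratio −0.530) and H3K4me2 (−0.231). The part of width and depth in the fold ratios was not tested. The median log2 ratio of the GSK fold to the Veh fold was −0.03 for H3K4me1 (1377 members), 0.04 for H3K4me2 (1353), 0.02 for H3K4me3 (2666), 0.25 for H3K27ac (413) and −0.28 for Pol II (1094). The Pol II fold was higher under GSK at 17.9% of these members. The Pol II median was −0.30 at promoters with LSD1 in both and −0.33 at Veh-only promoters, so the lower Pol II fold was seen in each class.

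Members whose other marks moved most towards GSK were 2610307P16Rik, Them4, Foxd3 and Prkcb. At 2610307P16Rik, H3K4me1, H3K4me2 and H3K4me3 were called under GSK only, with folds of 4.85, 5.38 and 3.83. At Foxd3, which encodes a forkhead factor of neural crest and pluripotent cells, H3K4me2 (4.91) and H3K4me3 (4.24) were called under GSK only, the LSD1 −log10 p was 12.9, and H3K4me1 was present in both with folds of 3.32 in Veh and 3.16 in GSK. At both genes promoter marks were called under GSK where Veh cells had no H3K4me3 call. The H3K4me3 peak at 2610307P16Rik had a −log10 p of 5.58, near the minimum of 5.22 in the GSK list. Them4, a mitochondrial thioesterase, had H3K4me1 (4.16) and Pol II (2.88) called under GSK only. Prkcb, protein kinase C beta, had H3K4me1 (3.41) and Pol II (2.77) called under GSK only. Each promoter had H3K4me3 in both treatments. The Pol II peaks had a −log10 p of 3.75 at Them4 and 3.57 at Prkcb, near the minimum of 3.00 in the GSK list. The other 6 genes chosen this way were Fignl2, Fgf9, Pkd2l2, Dnajb14, Znrf4 and Kcnh5.

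In the opposite direction, Spi1, which encodes the myeloid and B-cell factor PU.1, had H3K4me2 (fold 3.77), H3K4me3 (3.41), H3K27ac (3.56) and Pol II (5.58) called in Veh only and H3K4me1 in both, while its LSD1 peak (−log10 p 6.08) was called under GSK only. Ost4, a subunit of the oligosaccharyltransferase, and Bckdha, a subunit of the branched-chain keto acid dehydrogenase, had H3K4me1, H3K4me2, H3K27ac and Pol II in Veh only and kept H3K4me3. Its fold at Ost4 was 6.95 in Veh and 7.66 in GSK, and at Bckdha 6.13 and 6.20. The others named by the same rule were Zkscan7, Zbtb26, Rabgap1, A430088P11Rik, Rtel1 and 2900060B14Rik, of which Zbtb26 and Rabgap1 share a peak. Spi1 was the member of this group that lost the H3K4me3 call. Its Veh H3K4me3 peak had a −log10 p of 5.33, near the minimum of 5.23 in that list. A Veh LSD1 peak lay 1521 bp from the Spi1 TSS, outside the window.

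By gene function, the citric acid cycle, the mitochondrial and cytosolic ribosomal proteins and glycolysis had the 4 largest member shares among the lists compared, beside 9.92% over all promoters. That reference includes promoters without any LSD1 peak, so the share of GSK-bound promoters that were members is also given for several lists. Of 25 promoters of citric acid cycle genes, 14 were members (56.0%, 37.1 to 73.3%), and they made up 63.6% of those with LSD1 under GSK, against 24.4% over all GSK-bound promoters. Ogdh alone gave 6 of the 14 from 1 peak, and counted by gene 9 of 19 had a member promoter (47.4%). The genes named here cover several steps of the cycle and its entry. The GSK LSD1 −log10 p was 15.8 at Pdhb (pyruvate dehydrogenase), 11.8 at Cs (citrate synthase), 3.89 at Idh3g (isocitrate dehydrogenase), 7.99 at Ogdh (oxoglutarate dehydrogenase), 5.98 at Sucla2 and 8.61 at Suclg2 (succinyl-CoA ligase), and 4.73 at Sdhc and 6.02 at Sdhd (succinate dehydrogenase).

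At those 14 promoters H3K4me3 was called at 14 in both treatments and Pol II at 14 in Veh and 10 under GSK. H3K4me1 was called at 2 in Veh and 10 under GSK, H3K4me2 at 13 and 5, and H3K27ac at 10 and 7. Over all members H3K4me1 was called at 48.8% in Veh and 58.0% under GSK, H3K4me2 at 66.7% and 46.4%, and H3K27ac at 34.8% and 13.7%. Pol II was called at 46.9% and 39.4% of all members. Of the 8 promoters with new H3K4me1, 6 were those of Ogdh, and the others were Pdhb (fold 4.04 under GSK) and Cs (2.79). The Pol II fold was 8.26 in Veh and 4.59 under GSK at Pdhb and 4.72 and 3.50 at Cs. H3K4me3 stayed within a narrow range at both, with folds of 7.05 and 7.21 at Pdhb and 6.59 and 6.50 at Cs.

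Glycolysis and nutrient transport genes had 11 of 36 promoters as members (30.6%, 18 to 46.9%), from Eno1, Gapdh, Ldha, Pfkm, Pgk1 and the glucose transporter gene Slc2a1. These were 55.0% of the GSK-bound promoters of the list. All 11 had H3K4me3 in both treatments, 9 had Pol II in both, and H3K27ac was called at 7 in Veh and 1 under GSK. Over all members H3K27ac was called at 34.8% in Veh and 13.7% under GSK. The Pol II fold was 13.0 in Veh and 10.5 under GSK at Ldha, 13.5 and 11.4 at Slc2a1, and 12.5 and 10.5 at Gapdh, among the highest named here. Genes of the respiratory chain had 18 of 96 (18.8%, 12.2 to 27.7%).

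Mitochondrial ribosomal protein genes had 27 of 88 promoters as members (30.7%, 22 to 41.0%) and cytosolic ribosomal protein genes 29 of 100 (29.0%, 21 to 38.5%). Of the GSK-bound promoters of these lists, 38.0% and 39.2% were members. Translation initiation factors had 14 of 60 (23.3%, 14.4 to 35.4%). At the 27 mitochondrial members H3K4me3 was called at 27 in both treatments, Pol II at 20 in Veh and 17 under GSK, H3K4me1 at 10 and 20, H3K4me2 at 21 and 13, and H3K27ac at 12 and 1. Mrpl52, Mrpl42 and Mrpl10 had the strongest LSD1 peaks of the list, with −log10 p of 18.8, 17.6 and 13.3, and H3K4me1 was called under GSK only at each of them. At the 29 cytosolic members H3K4me3 was called at 29 in both, Pol II at 29 and 28, H3K4me1 at 6 and 10, H3K4me2 at 13 and 6, and H3K27ac at 25 and 8. The strongest of these were Rps3a1 (12.1), Rps24 (10.5) and Rps15a (9.83). Over all members the shares in Veh and under GSK were 48.8% and 58.0% for H3K4me1 and 66.7% and 46.4% for H3K4me2. For H3K27ac they were 34.8% and 13.7%, and for Pol II 46.9% and 39.4%.

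Enzymes that write or erase H3K4 methylation had 8 of 28 promoters as members (28.6%, 15.3 to 47.1%), from 5 genes. These were 32.0% of the GSK-bound promoters of the list, against 24.4% over all. Kmt2b, a methyltransferase of H3K4, had an LSD1 −log10 p of 10.8, Rbbp5, a core subunit of these methyltransferase complexes, had 8.68, Men1, the scaffold menin, had 5.65 over 3 promoters, Kdm2b, a demethylase of H3K36 and H3K4, had 8.34, and Kdm1b, the relative of LSD1, had 6.29. H3K4me3 was called at all 8 promoters in both treatments. Pol II was called in Veh only at Rbbp5 (fold 5.05) and Kdm1b (4.83) and under GSK only at Men1 (3.58), so its calls went in both directions. Of the LSD1 and CoREST complex list, 4 of 38 promoters were members (10.5%), from Rcor1 (8.13), Mta3 (10.6) and Ctbp2 (9.85), which encode CoREST, a subunit of the NuRD complex and a corepressor. That share was close to the 9.92% of all promoters. Other chromatin enzymes had 7 of 32 (21.9%, 11.0 to 38.8%): Arid1a had an LSD1 −log10 p of 8.66, Setdb1 7.56, Ezh1 6.65, Crebbp 5.37, Dnmt1 4.51 and Kat2a 3.49. Among GSK-bound promoters of this list the share was 28.0%.

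**Figure D3:**
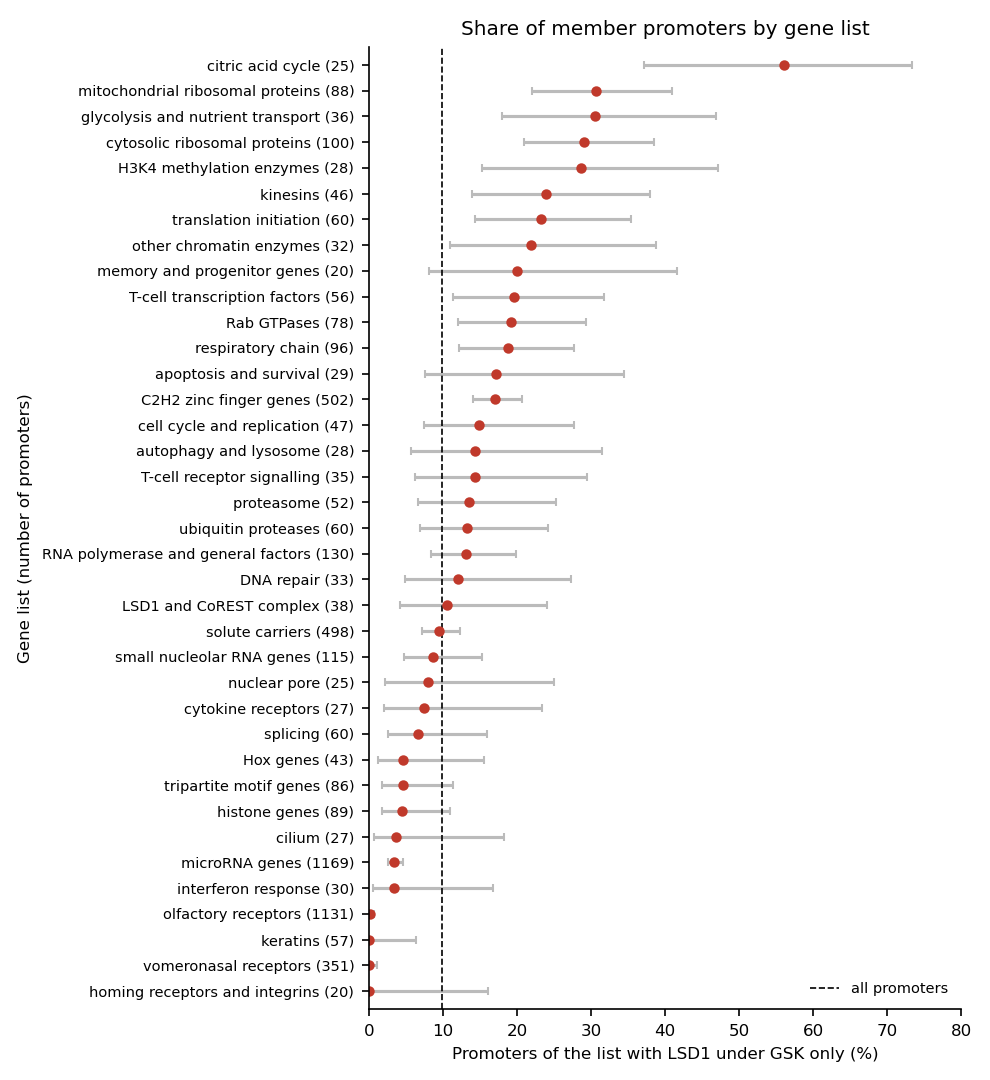
Share of promoters that were members (x axis, %) in each gene list of at least 20 promoters, with 95% Wilson intervals, by list (y axis, with its number of promoters), and a line at the share over all promoters. The citric acid cycle list lies furthest right at 56.0%, the ribosomal lists near 30%, and keratin and vomeronasal receptor genes at 0.

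Apart from the T-cell marker genes (3 of 11 promoters, 27.3%, 9.75 to 56.6%), lists of T-cell genes had member shares from 0 to 20.0%. All of these intervals except that of the transcription factors included the 9.92% of all promoters. T-cell transcription factors had 11 of 56 promoters as members (19.6%, 11.3 to 31.8%). Of the 38 GSK-bound promoters of this list 28.9% were members, near the 24.4% of all GSK-bound promoters. The LSD1 −log10 p was 9.17 at Nr4a1, 8.88 at Runx3, 8.81 at Gata3, 8.79 at Nr4a3, 8.28 at Tox2, 7.63 at Zeb2, 7.46 at Myb, 7.23 at Irf4 and 6.06 at Prdm1. These are factors of cytotoxic fate (Runx3, Zeb2, Prdm1), of receptor-induced and exhaustion programmes (Nr4a1, Nr4a3, Tox2, Irf4) and of progenitor or helper fate (Myb, Gata3). H3K4me2 was called at 3 of the 11 in Veh and 7 under GSK. The 4 new calls were Runx3 (fold 3.67) and the 3 Tox2 promoters that share 1 peak (6.42). Over all promoters H3K4me2 was called in GSK only at 1.92%. H3K4me3 was called at 8 of the 11 in both treatments and was missing at Tox2. At Irf4 the Pol II fold was 5.95 in Veh and 5.51 under GSK, and at Prdm1 4.50 and 3.87.

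Memory and progenitor genes had 4 of 20 promoters as members (20.0%, 8.07 to 41.6%), from S1pr1, the receptor for egress from lymphoid organs, Klf2, the factor that drives its expression, and Tcf7, which encodes the progenitor factor TCF1. Their LSD1 −log10 p was 9.17, 8.18 and 6.92. H3K4me2 and H3K4me3 were called at all 4 in both treatments and H3K27ac at none. The H3K4me2 fold at Tcf7 was 3.65 in Veh and 5.57 under GSK, and the Pol II fold at Klf2 was 11.9 and 8.87.

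Inhibitory receptor genes had 2 of 15 promoters as members (13.3%), Entpd1 (encoding CD39, 6.35) and Cd160 (5.47), and 5 of the 15 were Veh-only promoters. Both genes also had another TSS that was not a member and is not described here. The member promoters kept H3K4me3 and H3K4me2, without Pol II or H3K27ac in either treatment. The paper describes lower Pol II and H3K4me3 at Entpd1 under GSK. The H3K4me3 fold was 10.5 in Veh and 9.29 under GSK at Entpd1, whose promoter lies head to head with Tctn3 and shares its peaks, and 4.94 and 4.76 at Cd160. Effector and cytokine genes had 2 of 15 (13.3%), Fasl (6.5), the death ligand, and Ccl3 (5.22), a chemokine. At Ccl3 H3K4me3 was called under GSK only (3.85) and H3K4me2 in Veh only (4.34), whereas at Fasl the Pol II fold was 5.69 in Veh and 4.52 under GSK.

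T-cell receptor signalling genes had 5 of 35 promoters as members (14.3%): Malt1 (7.17), an activator of NF-κB, Cd3e (6.56) and Cd247 (3.66), chains of the receptor complex, Zap70 (5.84), its kinase, and Ptpn6 (5.15), the phosphatase SHP-1. All 5 had H3K4me3 in both treatments and all had Pol II in Veh, and Pol II was not called at Cd247 under GSK. The Pol II fold was 3.84 in Veh and 4.75 under GSK at Cd3e and 7.13 and 6.52 at Zap70. H3K27ac at Zap70 was called in both (3.22 and 5.01), and it was called in Veh only at Cd3e, Malt1 and Cd247. Over all members H3K27ac was called in Veh only at 21.6%. Cytokine receptors had 2 of 27, Il6st (8.2) and Il27ra (5.41), interferon response genes 1 of 30, Ddx58 (7.53), which encodes the RNA sensor RIG-I, and no promoter of 13 for costimulatory receptors or of 20 for homing receptors and integrins was a member.

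**Figure D4:**
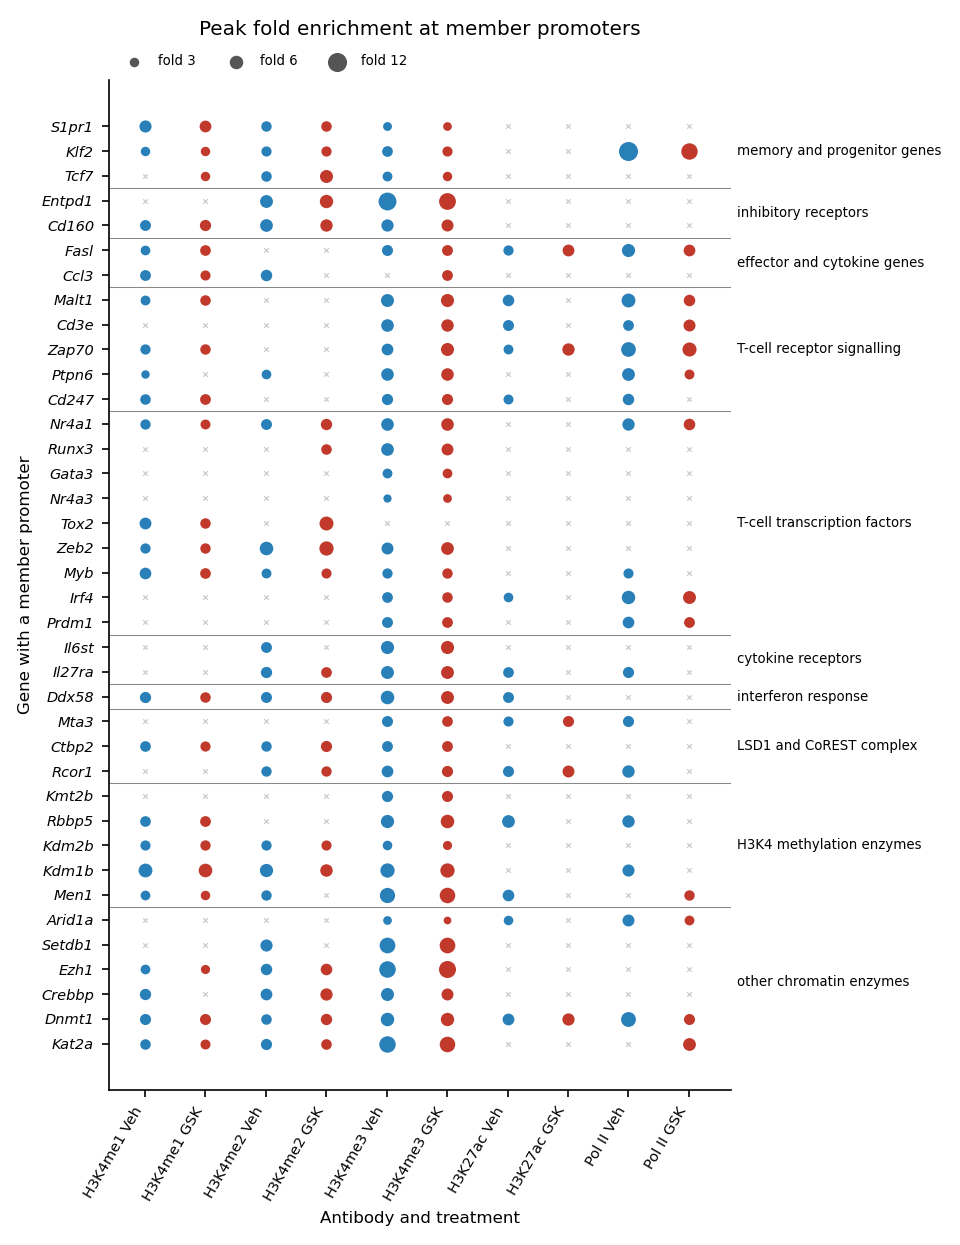
Fold enrichment of the peak at member promoters of T-cell and chromatin genes (y axis) for each antibody in Veh and GSK (x axis), shown as the area of the circle, with a small cross where no peak was called. H3K4me3 is called in both treatments at nearly all of these genes, H3K27ac at few under GSK, and Tox2 and Runx3 have H3K4me2 under GSK only.

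Among other groups, C2H2 zinc finger genes had 86 of 502 promoters as members (17.1%, 14.1 to 20.7%), kinesins 11 of 46 (23.9%), Rab GTPases 15 of 78 (19.2%), cell cycle and replication genes 7 of 47 (14.9%), the proteasome 7 of 52 (13.5%), and RNA polymerase and general transcription factors 17 of 130 (13.1%). Of GSK-bound promoters, 28.1% were members for C2H2 zinc finger genes, 37.9% for kinesins and 27.3% for Rab GTPases, beside 24.4% over all. Solute carriers were near the share over all promoters, with 47 of 498 (9.44%). Splicing factors (6.67%), histone genes (4.49%) and microRNA genes (40 of 1169, 3.42%) lay below it. Of their GSK-bound promoters, 10.0%, 7.69% and 33.6% were members, so microRNA genes lay above the 24.4% over all. LSD1 was called in neither treatment at 88.9% of microRNA gene promoters. Gene families with roles in smell and in epithelia were nearly without members, with 2 of 1131 olfactory receptor promoters (0.177%) and 0 of 351 vomeronasal receptor and 0 of 57 keratin promoters. LSD1 was called in neither treatment at 98.9%, 99.7% and 100% of these promoters.

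Members stood between the other LSD1 classes in sequence. A promoter was called CpG-island-like when its GC content was at least 50% and its observed-to-expected CpG ratio at least 0.6 over the 1 kb on either side. This held for 42.6% of members, 62.2% of promoters with LSD1 in both and 25% of Veh-only promoters, against 28.4% of all. In the shorter window from 250 bp before to 50 bp after the TSS the shares were 66.1%, 79.1%, 51.4% and 41.1%, in the same order of classes. The members' share minus that of Veh-only promoters was 17.6 points (14.7 to 20.4), and minus that of promoters with LSD1 in both it was −19.6 points (−21.6 to −17.6). The median CpG ratio was 0.595 at members, 0.677 with LSD1 in both and 0.510 in Veh only. In the 101 bp around the summit the median GC content was 67.3% at member peaks, 70.3% with LSD1 in both and 59.4% in Veh only, with 9, 10 and 5 CpG dinucleotides. Peaks called under GSK only thus lay on more CpG-rich sequence than peaks called in Veh only.

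SP matches varied with base composition. The SP motif was found within 50 bp of 32.2% of member summits, 34.6% of summits with LSD1 in both and 19.9% of Veh-only summits, a difference of 12.4 points (9.33 to 15.3) between members and Veh only, and at 26.8% of all promoters in a window of the same length at the TSS. Among summits with a GC content of at least 70% the SP shares were 51.1%, 47.8% and 51.2%, and under 60% they were 7.84%, 7.58% and 7.76%, so the classes were close in these bands. From 60 to 70% they were 25.4%, 26.2% and 21.1%, with the lower share in Veh only. The RUNX motif was found at 4.47% of member summits and 8.64% of Veh-only summits (difference −4.17 points, −6.09 to −2.43), and the motif of GFI1 (AAATCA), a repressor that recruits LSD1, at 0.935% and 2.79% (−1.86 points, −3.02 to −0.925). Over all promoters at the TSS these stood at 5.09% and 3.44%. Veh-only summits had a lower median GC content than member summits (59.4% against 67.3%), and RUNX and GFI1 matches were not compared within GC bands. The part of base composition in these 2 differences was not tested.

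The other motifs showed smaller differences between members and Veh-only summits. The ETS motif (CCGGAAG) was found at 5.0% of member and 4.97% of Veh-only summits, against 6.16% of all promoters at the TSS. NFY (CCAAT) was found at 6.51% and 7.94%, against 13.0%, and the E-box (CAGGTG) at 8.99% and 10.5%, against 6.80%. The TATA box (TATAAA) was found at 0.651% and 1.48%, against 4.74%. YY1 (AAGATGG) was found at 2.24% of member summits, AP-1 (TGANTCA) at 2.20%, CRE (TGACGTCA) at 0.610% and NRF1 at 0.122%. A match is only a description of the letters in the window.

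**Figure D5:**
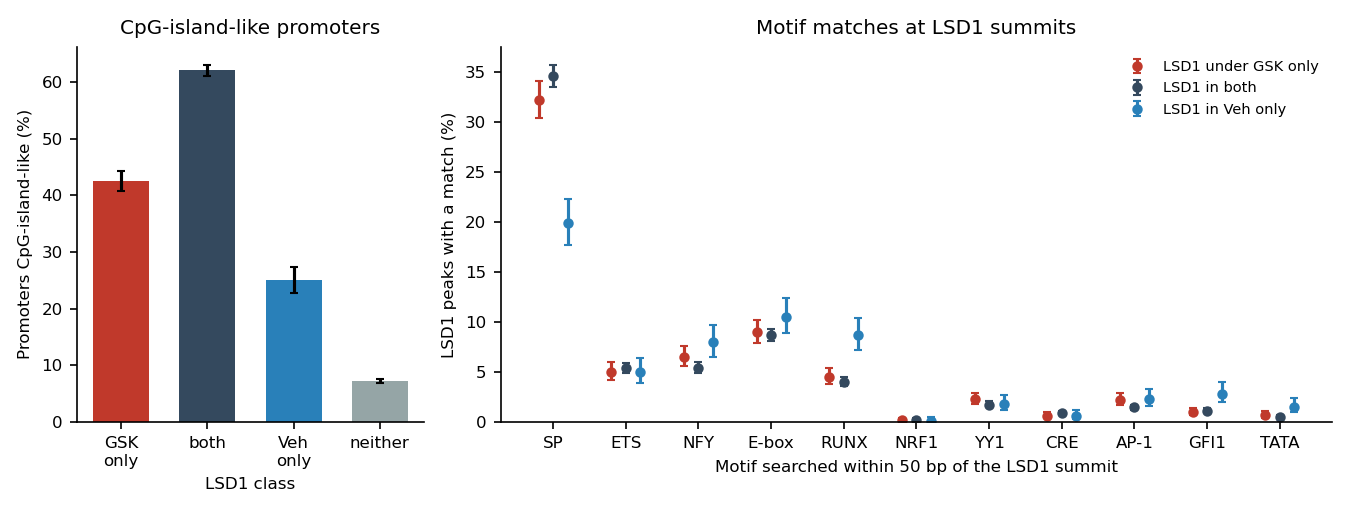
Left, the share of promoters that were CpG-island-like (y axis, %) by LSD1 class (x axis); right, the share of LSD1 peaks with a match to each motif within 50 bp of the summit (y axis, %) by motif (x axis), with 95% Wilson intervals as bars. Members (42.6%) lie between promoters with LSD1 in both (62.2%) and Veh only (25%), and SP matches are at 32.2% of member peaks and 19.9% of Veh-only peaks.

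Coding transcripts started at 89.5% of members, long noncoding RNAs at 6.70% and microRNA precursors at 1.40%. A divergent TSS within 1 kb was found for 17.2% of members, 20.9% of promoters with LSD1 in both and 15.1% of Veh-only promoters. Of the 2691 genes, 2018 had 1 TSS. The other 673 had several, of which 276 had only member promoters, 146 had another TSS with a Veh LSD1 peak and 251 had other TSSs without any LSD1 peak. At 122 of those 146 genes the other TSS had LSD1 in both treatments.

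Among GSK-bound promoters, the share of members was larger on the X chromosome than on any autosome. Members were 45.2% (39.1 to 51.4%) of 248 GSK-bound promoters on X and 24.0% of 12602 on autosomes, where single chromosomes ranged from 16.9 to 29.9%. The difference was 21.2 points (15 to 27.4). Of all 1331 X promoters 8.41% were members, beside 9.92% over all promoters. Calls in only 1 list were frequent on X in the other direction too, since 38.2% of 220 Veh-bound X promoters had no GSK peak, against 12.3% on autosomes. LSD1 peaks on X were also weaker, with a median GSK −log10 p of 6.68 against 8.67, and fewer X promoters had one (18.6% against 41.8%). The part of peak strength in the X share was not tested. The 112 X members had H3K4me3 at 94.6% in Veh and 93.8% under GSK, and H3K4me1 at 17.0% and 28.6%, against 49.9% and 59.1% of autosomal members.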

How the data were processed

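ChIP-seq peak lists of 12 libraries from CD8+ T cells were used. The authors kept uniquely aligned reads (Bowtie2, mm10) without duplicates and ran MACS2 on every library separately, with 0.001 as the p-value limit. For each peak the authors deposited a score, a fold enrichment (the ratio to local background), a −log10 p-value and a −log10 q-value. The histone lists began just above a −log10 q of 3, and the LSD1 and Pol II lists at a −log10 p of 3. The peak lists give no numbers of reads. Read numbers per library are stated by the study and were not used here. They were higher in Veh for H3K27ac, H3K4me2 and LSD1 and higher under GSK for H3K4me1, H3K4me3 and Pol II, and whether the deposited peaks were called on reads drawn to equal numbers is not given in the sources used here. Promoters (1 kb on either side of curated RefSeq starts) were classed by overlap of at least 1 bp with Python 3.11.15, pandas 2.3.3 and pysam 0.24.0, and the counting was tested on simulated data. A CpG ratio and 11 motifs were computed from GRCm38, with a 101 bp window at summits. The members, the 46 gene lists and the tests were chosen with earlier results of these data known, and name patterns of the lists were tightened after their counts were seen, to drop kinases, pseudogenes and antisense transcripts that matched by name alone. Genes were named by rule: the 10 strongest LSD1 peaks, the 10 with most other antibodies called in GSK only and the 10 in Veh only, all members of T-cell, interferon and chromatin lists, those nearest the thresholds, and 3 examples of other lists. Some genes that met these rules are not reported here. The citric acid cycle and glycolysis genes, the genes named beside their list values and the marks of the X chromosome were named after their values were seen. Alternatives changed the LSD1 threshold, the window, the overlap, the mark lists and the promoters per gene.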

Additional observations from a re-analysis of the deposited data

How the results depend on the processing

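Among 61 alternatives for the main results, 41 were counted as leaving the value unmoved, 19 as moving it and 1 as turning its direction. A share or net change was counted as moved when it left the interval of its main value. Numbers of members and of genes were judged by a fixed factor instead, within which all of them stayed. With mark lists of equal length, the net change at members was 3.54 points for H3K4me1 (GSK share 52.3%), 0.829 for H3K4me2, which turned its direction, 1.08 for H3K4me3 (GSK share 86.6%) and −1.21 for H3K27ac. With LSD1 peaks at a −log10 q of at least 2, the GSK shares were 50.1% for H3K4me2, 93.0% for H3K4me3, 15.5% for H3K27ac and 43.4% for Pol II, and the H3K27ac net change was −21.6 points. With GSK LSD1 peaks at a −log10 p of at least 5, the shares were 48.6% for H3K4me2, 92.6% for H3K4me3 and 42.2% for Pol II. With mark peaks above a −log10 q of 5, the net change was 10.7 points for H3K4me1, −16.6 for H3K4me2 and −18.3 for H3K27ac. With an overlap of at least 200 bp it was −19.0 for H3K4me2 and −20.3 for H3K27ac. In the window from 250 bp before to 50 bp after the TSS, 66.1% of members were CpG-island-like.

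The number of members ranged from 2427, with GSK LSD1 peaks at a −log10 p of at least 5, to 3340 at a −log10 q of at least 2, of which 2598 were among the 3136. Alternatives chosen after seeing the data kept the member share of citric acid cycle promoters between 47.4 and 56.0%. The share stayed between 29.5 and 34.1% for mitochondrial and between 25.9 and 30.0% for cytosolic ribosomal proteins. It stayed between 22.2 and 35.7% for H3K4 enzymes and between 25 and 30.6% for glycolysis genes. Of GSK-bound X promoters, rather than all X promoters, between 39.7 and 48.6% were members. No paired analysis was possible because each antibody and treatment has 1 library, and the labels number only the inputs, which have no peak list. With 1 library a group, differences of depth between libraries and differences of binding cannot be told apart.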
